A study of Homo sapiens with 6 samples.

Results

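The share that each transcript held of its gene's counts was compared between control and circPTK2 knockdown libraries of T24 and UMUC3, established human cell lines derived from bladder carcinoma. All genes with a gene name, at least 2 transcripts and at least 100 summed counts in every library were taken, which gave 84070 of the 136953 transcripts, in 9714 of 30717 genes. Each line was represented by 1 control library, labelled si-circPTK2-CON, and 2 knockdown libraries, labelled si-circPTK2-1 and si-circPTK2-2 and called the first and the second knockdown library here. The labels give no treatment time and no culture, and the design text speaks of sh constructs where the titles speak of siRNAs. Whether the libraries stem from separate cultures is not stated, so the p-values reflect the spread among these libraries only, and this spread may be technical. Counts of linear PTK2 transcripts say nothing of circPTK2, a circular RNA made from exons of that gene, and its knockdown was not checked. PTK2 itself was at 46.0 CPM (counts scaled to library size) in the control of T24 against 67.2 and 63.0, and at 124 CPM in the control of UMUC3 against 161 and 393.

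One gene can give rise to several transcripts through other start sites, splice sites, exons and poly(A) sites. These transcripts may encode different proteins, the same protein with other untranslated ends, or no protein. Some of them are annotated as targets of nonsense-mediated decay (NMD), the pathway that removes RNAs with an early stop codon, or as retained-intron transcripts. In carcinoma cells, switches of exons in genes such as NUMB, CD44 and FGFR2 accompany epithelial-mesenchymal transition (EMT), the loss of epithelial character that the series' title names. A share shows which transcripts a gene's reads were assigned to. It also changes when the other transcripts of the gene change and the counts of the transcript itself do not.

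The exons and splice site choices below separate transcripts of genes described further on, and are shown because they are part of the sequence by which these transcripts can be told apart. They were chosen after the values were seen, and come from the GENCODE release 29 transcripts on GRCh38. In the MAPK14 exons, capitals mark the 41 of 80 positions at which both exons hold the same base. In the MBNL1, NUMB and AP2M1 sequences, capitals mark the exon and lower case the neighbouring bases of the transcript. In the CLPTM1L, ZNF566 and MAP3K4 exons, capitals mark the bases that only the longer form of the exon holds.
MAPK14-201, first exon, chr6:36095987-36096066, plus strand: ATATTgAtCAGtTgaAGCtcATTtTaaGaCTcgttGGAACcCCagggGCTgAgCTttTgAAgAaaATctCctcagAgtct
MAPK14-202, second exon, chr6:36100188-36100267, plus strand: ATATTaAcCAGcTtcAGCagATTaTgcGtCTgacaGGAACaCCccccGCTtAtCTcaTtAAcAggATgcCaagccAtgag
MBNL1-223, 54-base exon, chr3:152446704-152446757, plus strand: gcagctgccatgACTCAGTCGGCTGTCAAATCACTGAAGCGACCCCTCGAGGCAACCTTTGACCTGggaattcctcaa
MBNL1-204, 36-base exon, chr3:152455542-152455577, plus strand: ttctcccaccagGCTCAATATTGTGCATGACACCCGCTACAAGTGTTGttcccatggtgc
NUMB-221, 144-base exon, chr14:73279281-73279424, minus strand: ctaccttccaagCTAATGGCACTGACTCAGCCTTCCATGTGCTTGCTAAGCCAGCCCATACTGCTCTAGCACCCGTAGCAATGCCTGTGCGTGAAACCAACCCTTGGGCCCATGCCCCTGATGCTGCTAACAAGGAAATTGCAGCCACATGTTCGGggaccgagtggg
NUMB-215, 33-base exon, chr14:73316390-73316422, minus strand: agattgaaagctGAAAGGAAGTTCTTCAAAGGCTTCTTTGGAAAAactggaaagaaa
CLPTM1L-201, 85-base exon form, chr5:1331799-1331883, minus strand: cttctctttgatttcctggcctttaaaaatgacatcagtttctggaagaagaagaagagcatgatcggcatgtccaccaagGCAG
CLPTM1L-216, 81-base exon form, chr5:1331803-1331883, minus strand: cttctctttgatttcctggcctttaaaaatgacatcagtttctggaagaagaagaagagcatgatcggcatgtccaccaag
ZNF566-201, 99-base exon form, chr19:36472911-36473009, minus strand: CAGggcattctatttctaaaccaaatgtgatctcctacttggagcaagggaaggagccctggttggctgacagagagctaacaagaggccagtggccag
MAP3K4-215, 79-base exon form, chr6:161093773-161093851, plus strand: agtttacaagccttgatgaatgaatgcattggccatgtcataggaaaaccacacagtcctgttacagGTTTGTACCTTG
AP2M1-201, 6-base exon, chr3:184180645-184180650, plus strand: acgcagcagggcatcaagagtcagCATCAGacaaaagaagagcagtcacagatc

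Total counts per library were 65111683 to 72362436, and the transcripts described here held 87.0 to 88.3% of the counts in named genes. Transcripts without a gene name held 14.9 to 16.1% of all counts, so that reads assigned to them are missing from every share. Of the 84070 transcripts, 59453 passed the filter on low counts, in 9333 genes with a median of 5 tested transcripts. The remaining 24617 were kept in the denominators of the shares but not tested. Protein-coding transcripts held 86.1 to 88.5% of the counts, retained-intron transcripts 6.77 to 8.59% and NMD transcripts 2.44 to 2.75%. Of 10 markers of bladder cancer cells, 8 reached 1 CPM in at least 1 library. Their summed level was 3260 to 3745 CPM in controls and 3368 to 3660 CPM in knockdown libraries. In UMUC3, VIM, which is not particular to bladder cells, made 3168 to 3263 CPM of it. There KRT8, KRT18 and CD44 were at 81.5 to 291 CPM, KRT7 and PPARG at 0.837 to 4.93 CPM. GATA3, UPK2 and KRT5 were at most 0.822 CPM in UMUC3, and EPCAM was at 0. Of 10 immune markers 3 reached 1 CPM, with a summed level of 9.75 to 31.4 CPM in controls and 7.63 to 55.6 CPM in knockdown libraries. CD68 and CD14 made most of that sum, while PTPRC, the pan-leukocyte gene, reached at most 0.0675 CPM. Of 10 stromal and endothelial markers 5 did, at 13.4 to 81.9 and 13.4 to 74.4 CPM, of which CDH5 in T24 made 64.5 to 75.7 CPM. In bulk RNA, fewer cells of a type and less RNA per cell cannot be told apart.

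Shares differed between the paired knockdown libraries of a line about as often as between control and knockdown. In T24, 9761 and 10053 transcripts differed by at least 10 percentage points between the control and each knockdown library, and 9787 differed between the knockdown libraries. In UMUC3, these numbers were 10165, 10206 and 9444. Between the controls of the lines, 11684 transcripts differed. The leading transcript was another one in 21.4 and 22.2% of the T24 genes, in 21.7% between the T24 knockdown libraries, in 22.0 and 21.8% of the UMUC3 genes and in 21.0% between the UMUC3 knockdown libraries. Differences in 1 knockdown library alone were thus about as frequent as those between the paired knockdown libraries. The labels of a pair carry different siRNA numbers, so that effects of the single siRNA and other spread cannot be told apart there. The comparisons below use all 4 libraries.

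**Figure D1:**
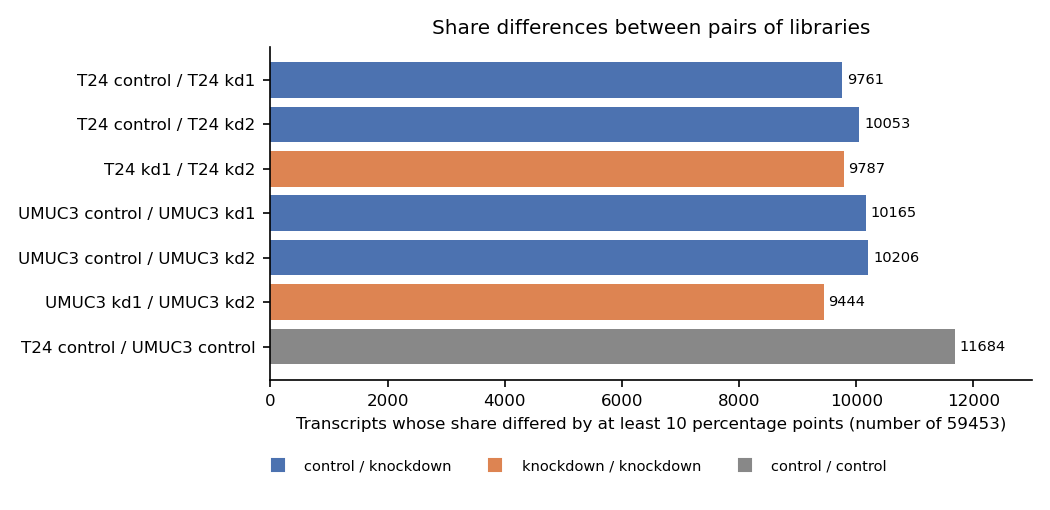
Number of transcripts, of 59453 tested, whose share of the gene differed by at least 10 percentage points between 2 libraries (x axis), for pairs of libraries (y axis; kd1 and kd2 are the first and second knockdown library). The bars of control against knockdown lie between 9761 and 10206, and those of the paired knockdown libraries at 9787 and 9444.

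In 729 transcripts the share differed from the control of the line by at least 10 percentage points in the same direction in all 4 knockdown libraries, 312 higher and 417 lower, which is 1.23% of the transcripts tested. They came from 552 genes (5.91% of the genes). In 602 transcripts (1.01%) both libraries of T24 differed by at least 10 points one way and both of UMUC3 the other way. With 1 knockdown library left out, the number that differed alike was 1315 (first T24 library), 1248 (second T24), 1209 (first UMUC3) or 1268 (second UMUC3). For 504 of the 729 transcripts, each difference was also larger than the gap between the paired knockdown libraries of that line. The limit of 10 points has no gap around it. Transcripts of GGCT, TOGARAM1 and GPAA1 lay just inside it, with a smallest difference of 10.011, 10.012 and 10.046 points, and transcripts of KHDRBS1, DSE and MSH5 just outside, at 9.996, 9.983 and 9.980 points.

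**Figure D2:**
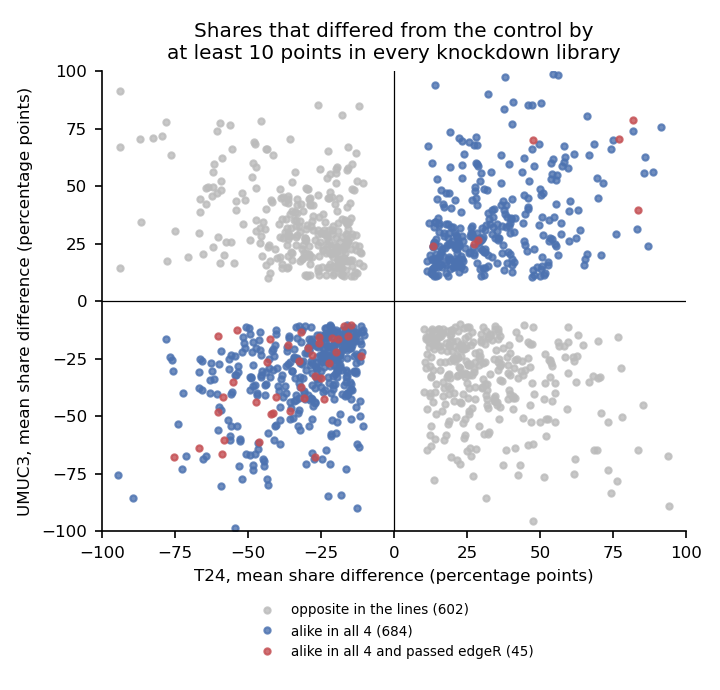
Mean share difference of knockdown from control in T24 (x axis) and UMUC3 (y axis), in percentage points, for the 729 transcripts that differed alike in all 4 knockdown libraries (upper right and lower left) and the 602 that differed in opposite directions (grey). The 45 transcripts in red also passed the edgeR test.

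Tested across the whole table with edgeR (quasi-likelihood test of each transcript against the rest of its gene, line as a block), 172 transcripts (0.289%) had a changed share at a Benjamini-Hochberg adjusted p under 0.05. The share rose in 58 (0.0976%) and fell in 114 (0.192%). Unadjusted, 3018 of the 59453 tested transcripts had a p under 0.05, about the share that this limit would pass without any effect. At the level of genes, 134 (1.44%) passed. Of the 172, 45 were among the 729 (7 higher, 38 lower), and 684 of the 729 did not pass. Of the calls, 79 were at 0 in all 4 knockdown libraries and 48 at 0 in both controls. For 28 of them the 4 knockdown libraries did not share a direction, and 74 held under 10% of the gene in every library. The count depended on the test. With limma on the log2 odds of the shares 0 transcripts passed, and 2621 of the 59453 had an unadjusted p under 0.05. Limma diffSplice on voom values called 382 and DESeq2 1108. Fits without the T24 control compared knockdown with control in UMUC3 alone, and those without the UMUC3 control in T24 alone. A call lost there, here and below, was lost in a comparison within a single line.

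The types of the 729 transcripts are set here beside those of all tested transcripts that reached 10% of their gene in some library, with no test. Protein-coding transcripts made 80.9% of the 729 (258 higher, 332 lower) against 70.3%. Retained-intron transcripts made 8.23% (23 higher, 37 lower) against 15.1%, and NMD transcripts 5.49% (16 higher, 24 lower) against 6.63%. In 163 genes at least 1 transcript was higher and at least 1 lower. The 2 transcripts with the largest differences encoded different proteins in 102 of these genes (62.6%), an identical one in 30 (18.4%), and in 28 (17.2%) only 1 of them was coding. Among the leading and second transcripts of 9332 tested genes, the same classes made 52.1, 12.2 and 31.1%. Only 3 of the 163 pairs had identical splice junctions. The ends lay within 100 bases of each other in 73 pairs. In 54 pairs the transcript with the higher share ended over 100 bases further downstream, and in 36 over 100 bases further upstream.

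The 20 genes with the largest difference common to all 4 libraries are described next, by what separates the 2 transcripts. This choice sets the knockdown libraries apart from their control in advance, so that separation is no evidence of its own. CLPTM1L, CTSB, FBXO18, BAZ1B, TXNDC5, MAPK14 and MAP3K4 had at least 1 transcript that passed the edgeR test, and FZD3 passed at the level of genes only (edgeR adjusted p = 0.0482).

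**Figure D3:**
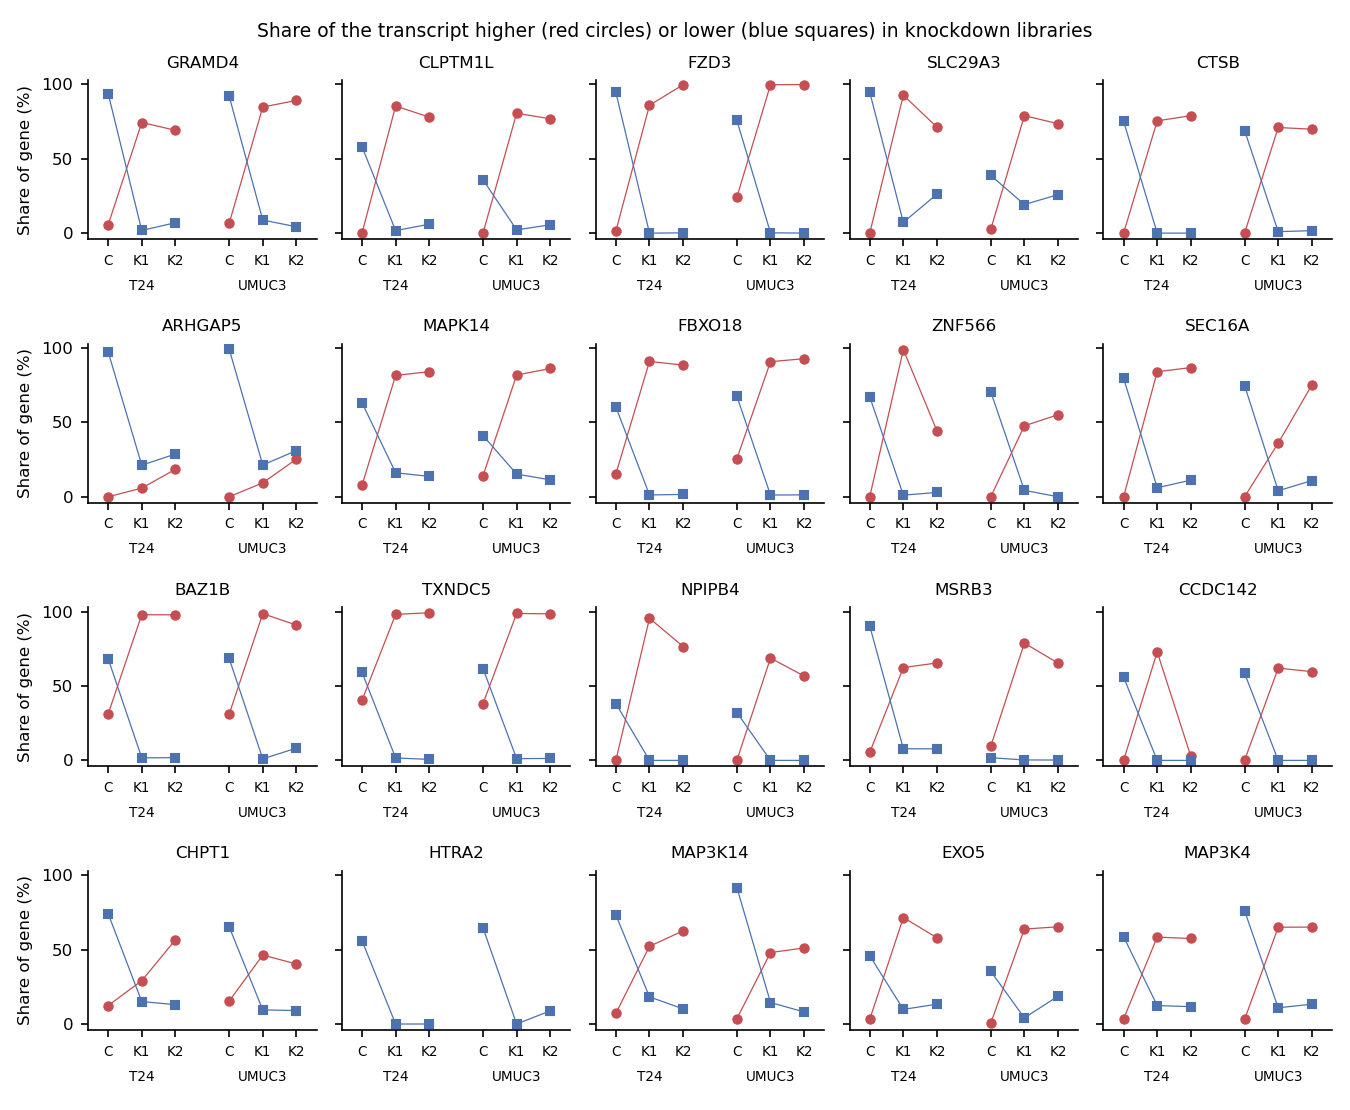
Share of the gene (y axis, percent) in the control (C) and the first and second knockdown library (K1, K2) of each line, for the 20 genes with the largest difference common to all 4. Red circles are the transcript with the higher share after knockdown and blue squares the one with the lower share; HTRA2 had no transcript of the first kind. In GRAMD4 the lower transcript went from 93.9 and 92.2% in the controls to at most 8.80% in the knockdown libraries.

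Splice site choices separated the transcripts of CLPTM1L, which encodes a membrane protein from a cancer susceptibility locus shared with TERT. CLPTM1L-216 was at 0 counts in both controls, which allows shares of up to 0.0513 and 0.0365%, and held 85.5 and 78.1% in the T24 knockdown libraries and 80.7 and 76.9% in those of UMUC3. The rise passed the edgeR test (adjusted p = 0.000138). CLPTM1L-201, the longer coding form, held 58.2% of the gene in the T24 control, 1.70 and 6.02% in its knockdown libraries, 35.9% in the UMUC3 control against 2.21 and 5.59% in its knockdown libraries (edgeR adjusted p = 0.288). Exon 8 ends in 4 additional bases in CLPTM1L-201. Among counts of transcripts that span this place, the 85-base form made all in both controls, 5.97 and 13.7% in T24 and 8.68 and 11.4% in UMUC3 knockdown libraries. A 104-base exon of CLPTM1L-201 also tells these transcripts apart. It made 64.8 and 47.15% of spanning counts in the controls and 5.75 to 12.2% in the knockdown libraries. The annotated coding sequence is 1614 bases in CLPTM1L-201 and 1107 in CLPTM1L-216. The gene's own level was 98.6 CPM in the T24 control against 134 and 132, and 147 CPM in the UMUC3 control against 155 and 165.

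In ZNF566, a zinc finger gene, the place of the acceptor differed by 3 bases. The 99-base form made 82.9% of the spanning counts in the T24 control against 1.08 and 6.76% in its knockdown libraries. In UMUC3 it made 87.5% in the control and 7.95 and 0% in the knockdown libraries. This gene was low, at 4.12 to 6.79 CPM. In MAP3K4, a kinase of the stress-activated p38 and JNK pathways, the 79-base form of exon 15 holds 12 more bases than the 67-base form. It made 30.9% of spanning counts in the T24 control against 79.7 and 80.9% in the knockdown libraries, and 17.1% in the UMUC3 control against 82.3 and 80.9%. MAP3K4-215, an NMD transcript with this form, held 3.47 and 3.13% of the gene in the controls and 57.5 to 65.2% in the knockdown libraries (edgeR adjusted p = 0.219). The MAP3K4 transcripts that passed, chosen after their values were seen, were smaller. MAP3K4-203 was at 0 in both controls and rose to 5.02 to 6.97% (edgeR adjusted p = 0.0118), and MAP3K4-204 was at 0 and rose to 4.28 to 7.0003% (edgeR adjusted p = 0.0125). Both calls were lost without the T24 control (edgeR adjusted p = 0.18 and 0.195) or the UMUC3 control (0.191 and 0.19).

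MAPK14, the stress kinase p38 alpha, has a pair of 80-base exons that replace each other, and none of its 8 transcripts held both. The first made 33.01% of spanning counts in the T24 control against 81.9 and 84.6% in the knockdown libraries. In UMUC3 it made 52.1% in the control and 82.2 and 86.6%. The second made 65.8, 16.5 and 14.0% in T24 and 44.3, 15.7 and 11.7% in UMUC3 in the same order. MAPK14-201, which holds the first exon, had a share of 7.71 and 14.1% in the controls and a mean of 82.9% ± 1.76 (SD, n = 2) in T24 and 84.1% ± 3.15 in UMUC3 knockdown libraries, and did not pass the edgeR test (adjusted p = 0.673). MAPK14-202, which holds the second exon, did not pass either. MAPK14-204, chosen after its values were seen, fell from 25.1 and 33.4% in the controls to 0 in all 4 knockdown libraries (edgeR adjusted p = 1.28e-05). It too holds the first exon: of 447 counts with that exon in the T24 control, 342 were MAPK14-204 and 105 MAPK14-201. Its fall thus runs against the rise of the first exon, and its call is not one for the exchange of the exons. MAPK14-201 and MAPK14-202 encode proteins of equal length, from 1080 coding bases. MAPK14 itself was at 23.0 CPM in T24 control cells against 49.6 and 47.0 in its knockdown libraries, and at 13.8 CPM against 44.5 and 49.0 in UMUC3.

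**Figure D4:**
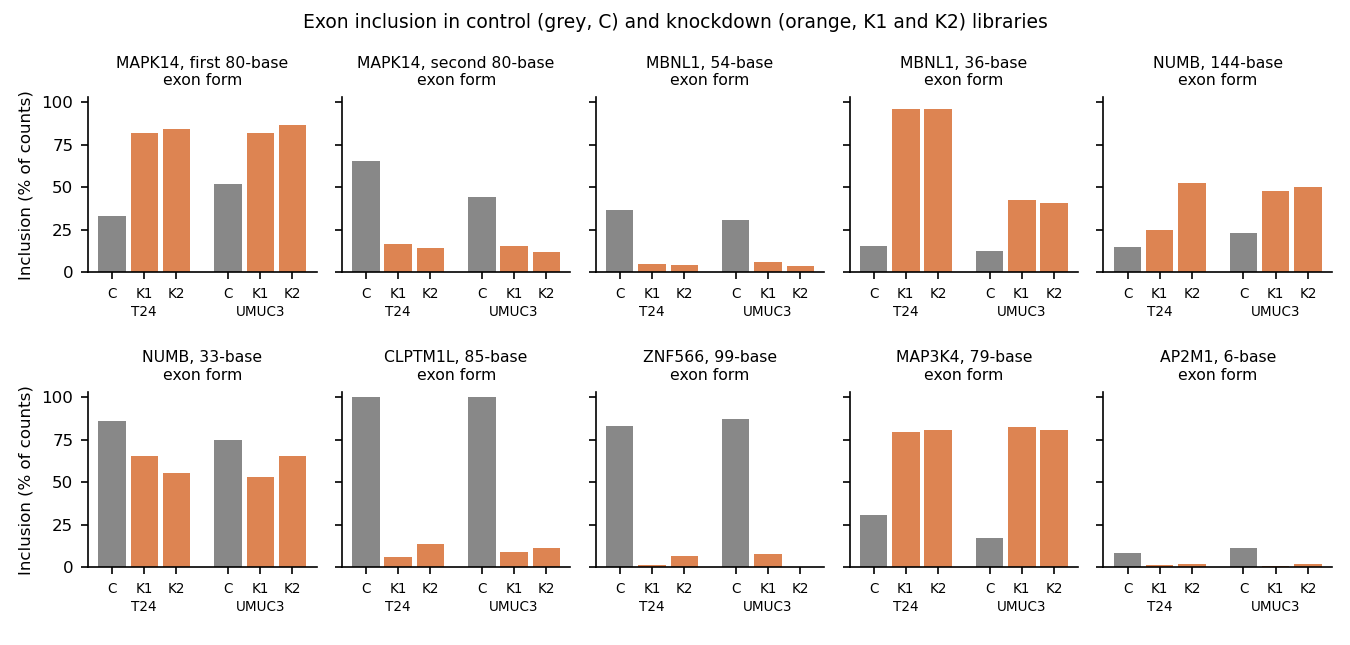
Inclusion of 10 exons or exon forms (y axis, percent of the counts in transcripts that span the place) in the control (C, grey) and knockdown (K1 and K2, orange) libraries of each line. The first MAPK14 exon was at 33.01 and 52.1% in the controls and 81.9 to 86.6% in the knockdown libraries; the MBNL1 54-base exon was at 36.4 and 31.0% against 3.46 to 5.96%.

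Transcripts of nearly equal length with the same coding sequence made another group. CTSB, the lysosomal protease cathepsin B, exchanged CTSB-228 for CTSB-232. CTSB-228 held 75.3% of the gene in the T24 control, 0.0106 and 0.0187% in its knockdown libraries, 69.0% in the UMUC3 control against 1.00 and 1.66% in its knockdown libraries, and its fall passed the edgeR test (adjusted p = 0.000147; 0.0513 without the T24 control). CTSB-232 had 7 and 15 counts in the controls, shares of 0.0210 and 0.0704%, and rose to 75.5, 79.01, 71.1 and 69.9% (edgeR adjusted p = 0.000586). The 2 transcripts are 2009 and 1989 bases long, their ends lie 15 bases apart, and they do not share all splice junctions. In FZD3, a Frizzled receptor for Wnt ligands, FZD3-204 held 94.6 and 75.8% in the controls and at most 0.195% in the knockdown libraries, with FZD3-201 at 86.0 to 99.95% there (edgeR adjusted p = 0.0653 for FZD3-204). These transcripts differ in length by 4 of 13740 bases, but FZD3-201 has 8 exons and FZD3-204 has 7, and their starts lie 51 bases apart. In SLC29A3, a nucleoside transporter of lysosomes, the transcripts SLC29A3-201 and SLC29A3-205 share all splice junctions. They start 1 base and end 5 bases apart, so that the division of reads between them is uncertain. SLC29A3-201 held 0 and 2.46% in the controls and 71.3 to 92.8% in the knockdown libraries (edgeR adjusted p = 0.464). SLC29A3-205 held 94.8% in the T24 control against 7.25 and 26.2%, and 38.8% in the UMUC3 control against 19.2 and 25.9%. The gene had only 138 to 448 counts per library.

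Other pairs with an identical coding sequence differed in the ends of the transcript. BAZ1B encodes a bromodomain protein of chromatin remodelling complexes. Its transcript BAZ1B-202 held 68.4% in the T24 control, 1.68 and 1.85% in the knockdown libraries, 68.6% in the UMUC3 control against 1.04 and 8.23% in the knockdown libraries, and its fall passed the edgeR test (adjusted p = 0.0211). BAZ1B-201, whose annotated end lies 1167 bases further downstream, held 31.2 and 31.1% in the controls and 91.0 to 98.7% in the knockdown libraries. The call was lost without the T24 control, either T24 knockdown library, the UMUC3 control or the first UMUC3 knockdown library (edgeR adjusted p = 0.351, 0.154, 0.163, 0.185 and 0.058). The level of the gene was 142 CPM against 132 and 135 in T24 and 221 against 254 and 219 in UMUC3. In ARHGAP5, ARHGAP5-202 held 97.5 and 99.3% in the controls and 21.2 to 31.1% in the knockdown libraries. ARHGAP5-206, the transcript with the largest common difference upward, held 5.82 to 25.3% there. The counts of ARHGAP5-202 itself were 2522 in the T24 control against 1784 and 2003, and 5825 in the UMUC3 control against 1011 and 1780. The level of ARHGAP5 was 43.7 CPM in the T24 control against 141 and 117, and 105 CPM in the UMUC3 control against 84.2 and 94.2.

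In GRAMD4, TXNDC5 and MAP3K14 a long form stood against a short or non-coding one, while both forms of FBXO18 were long and coding. GRAMD4, linked to apoptosis, showed the largest difference: GRAMD4-201, with 1734 coding bases, held 93.9 and 92.2% in the controls and 1.79, 7.03, 8.80 and 4.29% in the knockdown libraries. GRAMD4-203, with 303 coding bases and a start 47847 bases further downstream, held 5.58 and 6.54% in the controls and 69.2 to 89.3% in the knockdown libraries. The gene had only 153 to 394 counts per library, and neither transcript passed (edgeR adjusted p = 0.258 and 0.689). TXNDC5-202, a retained-intron transcript of a disulfide isomerase of the endoplasmic reticulum, held 59.3 and 61.8% in the controls and 0.648 to 1.66% in the knockdown libraries, and fell by the edgeR test (adjusted p = 0.0118). FBXO18 is a DNA helicase of homologous recombination named FBH1 in GENCODE. FBH1-201, with 3129 coding bases and a start 4155 bases further upstream, held 15.4 and 25.6% in the controls. It held 88.6 to 92.8% in the knockdown libraries and did not pass. FBH1-202, with 3282 coding bases, held 60.4 and 67.6% in the controls and 1.19 to 1.58% in the knockdown libraries. FBH1-202 fell by the edgeR test as TXNDC5-202 did (adjusted p = 0.0209). Both calls were lost without the T24 control, the second T24 knockdown library, the UMUC3 control or the second UMUC3 knockdown library. The edgeR adjusted p was then 0.271, 0.102, 0.277 and 0.0509 for TXNDC5-202 and 0.21, 0.158, 0.278 and 0.0681 for FBH1-202. MAP3K14-204, a retained-intron transcript of the NF-kappa-B inducing kinase, held 7.16 and 3.55% in the controls and 48.1 to 62.7% in the knockdown libraries, while the coding MAP3K14-201 held 73.4 and 91.8% against 8.12 to 18.2% (edgeR adjusted p = 0.548 and 0.561).

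The remaining genes of the 20 did not pass the edgeR test. SEC16A-206, from a gene for the sites where cargo leaves the endoplasmic reticulum, was at 0 in both controls and held 36.1 to 86.9% in the knockdown libraries. The level of SEC16A differed too, with 9.25 CPM in the T24 control against 113 and 73.2, and 21.2 CPM in the UMUC3 control against 125 and 74.1. MSRB3-202, of a methionine sulfoxide reductase, held 5.35 and 9.42% in the controls and 62.4 to 78.9% in the knockdown libraries. CHPT1-205, of the last step of phosphatidylcholine synthesis, held 74.2 and 65.4% against 9.06 to 15.1%. EXO5-202, of a single-strand DNA exonuclease, held 3.13 and 0.5% against 58.0 to 71.6%. HTRA2-206, a processed transcript of a mitochondrial protease gene, held 56.1 and 64.6% against 0 to 8.85%, and CCDC142-203, an NMD transcript, 56.0 and 58.6% against 0 in all 4 knockdown libraries. NPIPB4-203 was at 0 counts in both controls and held 56.7 to 95.6% in the knockdown libraries. NPIPB4 belongs to a family of near-identical copies, so that its counts are uncertain.

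The 6 transcripts that fell with the smallest p were all at 0 counts in the 4 knockdown libraries. POFUT2-214, of an enzyme that adds fucose to secreted proteins, held 60.2% of the gene in the T24 control (1732 counts) and 48.1% in the UMUC3 control (1084 counts). A count of 0 allows a share of up to 0.136% in the knockdown libraries (edgeR adjusted p = 1.98e-06). The gene's own level was 48.6 CPM against 43.6 and 44.4 in T24 and 40.3 against 39.1 and 36.4 in UMUC3. ILVBL-209, of an enzyme of fatty acid metabolism in the endoplasmic reticulum, held 41.5 and 48.5% in the controls (edgeR adjusted p = 6.33e-06), and NLN-202, of the peptidase neurolysin, 42.5 and 16.3% (edgeR adjusted p = 1.98e-06). UHRF1-204, of a gene that binds methylated histone H3 and hemimethylated DNA, held 19.9 and 1.503% (edgeR adjusted p = 5.45e-06). GLG1-203, of a Golgi glycoprotein, held only 0.971 and 3.71% (edgeR adjusted p = 6.06e-06).

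AP2M1-201 encodes the medium subunit of the clathrin adaptor AP-2 and is 1 of the transcripts with a 6-base exon. It held 7.14% in the T24 and 10.3% in the UMUC3 control and 0 in the knockdown libraries (edgeR adjusted p = 6.06e-06). Over all 11 transcripts that span the place, the 6-base exon made 7.97% in the T24 control against 1.01 and 1.60% in its knockdown libraries, and 10.9% in the UMUC3 control against 0.547 and 1.68%. In the second UMUC3 knockdown library the level of AP2M1 was 85.5 CPM, against 747 to 884 CPM in the other libraries.

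Of the 6 transcripts that rose with the smallest p, CLPTM1L-216, CTSB-232 and KIAA1191-213 were higher by at least 10 points in all 4 knockdown libraries. KIAA1191-213 was at 0 in both controls and held 14.5 and 12.1% in T24 and 33.1 and 15.1% in UMUC3 knockdown libraries (edgeR adjusted p = 0.000905; 0.0769 without the T24 and 0.0803 without the UMUC3 control). The other 3 passed without being higher by at least 10 points in every library. FLNA-203, of the actin cross-linker filamin A, was at 0 in both controls and in the first T24 knockdown library, and held 83.5% in the second and 83.8 and 83.1% in UMUC3 (edgeR adjusted p = 0.00171). That call was lost without the T24 control, the UMUC3 control or the first UMUC3 knockdown library (edgeR adjusted p = 0.0905, 0.0803 and 0.0524). RPL4-203, a retained-intron transcript of a ribosomal protein gene, was at 0 in all 3 T24 libraries and in the UMUC3 control, and held 61.0 and 62.1% in the UMUC3 knockdown libraries, so that its call rests on UMUC3 alone (edgeR adjusted p = 7.83e-06; 1 without the UMUC3 control). SF1-209, of the factor that binds the branch point before splicing, held 13.8 and 0.0202% in the T24 and 11.5 and 12.97% in the UMUC3 knockdown libraries, and at most 0.0331% in the controls (edgeR adjusted p = 0.0014964; 0.147 without the T24 control).

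**Figure D5:**
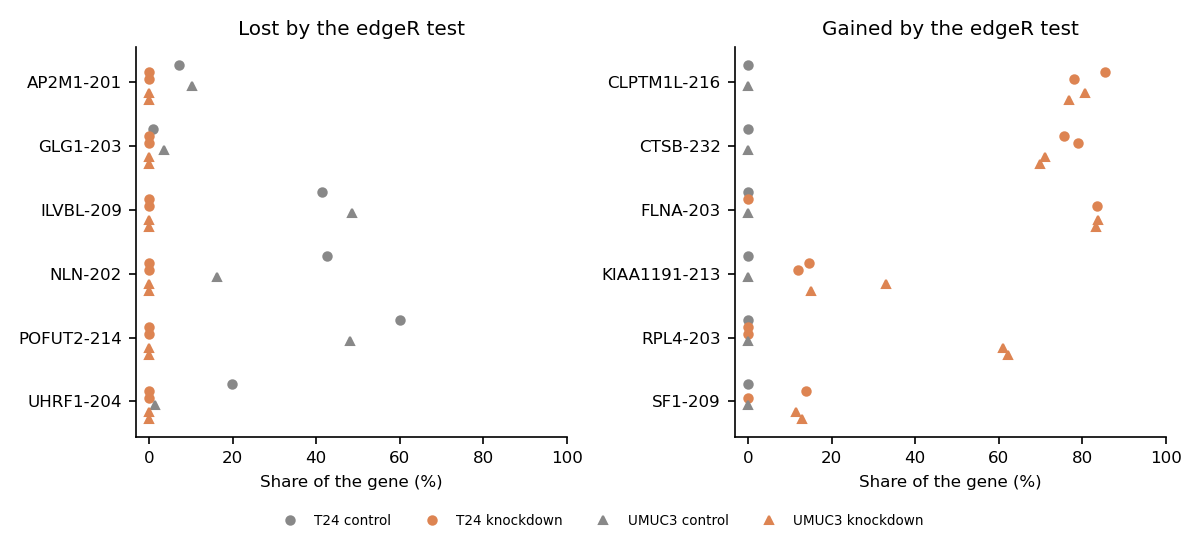
Share of the gene (x axis, percent) in each library for the 6 transcripts with the smallest p among those that fell (left) and rose (right) in the edgeR test. Circles are T24, triangles UMUC3, grey the controls and orange the knockdown libraries. All knockdown points on the left are at 0; on the right, FLNA-203, RPL4-203 and SF1-209 have knockdown libraries at or near 0.

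Among 46 tested genes with splicing linked to EMT, 4 (MBNL1, NUMB, CDC42 and KIF13A) had a share that differed alike by at least 10 points and 1, MBNL1, passed the edgeR test at the level of genes, which the counts of the lists use. The median of the largest common difference was 0.421 points over these genes and 0.226 over all 9333, of which 5.91% differed alike and 1.44% passed. MBNL1 is an RNA-binding protein that controls splicing of other genes. MBNL1-223 held 27.9% in the T24 and 23.5% in the UMUC3 control and was at 0 in the 4 knockdown libraries, where a count of 0 allows up to 0.0240% (edgeR adjusted p = 7.81e-06). MBNL1-204 held 6.75 and 6.84% in the controls, 88.4 and 91.5% in the T24 and 38.7 and 37.5% in the UMUC3 knockdown libraries (edgeR adjusted p = 0.720). Another 2 MBNL1 transcripts passed, chosen after their values were seen. MBNL1-218 held 46.8% in the T24 control and 0 in its knockdown libraries (edgeR adjusted p = 0.0367). In UMUC3 it held 56.3% in the control against 52.2 and 56.0%, so that its fall was large in T24 only. MBNL1-212 held at most 0.528% (edgeR adjusted p = 0.0223).

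Of the 2 MBNL1 exons, the 54-base one made 36.4% of spanning counts in the T24 control against 5.02 and 4.47% in its knockdown libraries, and 31.0% in the UMUC3 control against 5.96 and 3.46%. The 36-base exon made 15.4% in the T24 control against 96.1 and 96.3% in its knockdown libraries. In UMUC3 it made 12.4% against 42.8 and 40.7%, so that it was higher in both lines. For MBNL1-204, which holds it, the difference between the lines did not pass (edgeR adjusted p = 1), which does not show the lines to be alike. Both exons keep the reading frame.

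NUMB, an inhibitor of Notch signalling, has a 144-base exon in its proline-rich region and a 33-base exon in its phosphotyrosine-binding domain. The 144-base exon made 14.6% in the T24 control against 24.8 and 52.3% in its knockdown libraries, and 23.0% in the UMUC3 control against 48.1 and 50.1%. All 4 knockdown libraries were above their control, and the T24 pair differed by more than the first of them from the control. The 33-base exon made 85.8% in the T24 control against 65.4 and 55.1%, and 75.1% in the UMUC3 control against 53.2 and 65.5%. NUMB-215 held 66.6 and 48.3% in the controls and 15.1 to 35.5% in the knockdown libraries (edgeR adjusted p = 1).

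CDC42, a regulator of filopodia, has transcripts of equal coding length (573 bases) that end differently. CDC42-202 held 83.3% in both controls, 65.7 and 68.3% in the T24 and 67.1 and 29.4% in the UMUC3 knockdown libraries, and CDC42-201 held 14.99 and 16.7% against 29.1 to 67.1% (edgeR adjusted p = 1 for both). The level of CDC42 was 504 CPM in the T24 control against 109 and 48.1, and 350.5 CPM in the UMUC3 control against 19.2 and 3.75. In KIF13A, a kinesin, KIF13A-207 held 73.8 and 29.6% in the controls and 17.1 to 63.6% in the knockdown libraries.

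Of 28 genes with isoform switches known from cancer, 6 (21.4%) had a share that differed alike by at least 10 points, against 5.91% of all tested genes. None of these 6 passed the edgeR test, and NF1 was the 1 gene of the list that did, where 1.44% of all tested genes passed. Its called transcript NF1-208 was at 0 in both controls and held 0.0693 to 1.14% in the knockdown libraries (edgeR adjusted p = 0.0274). That call was lost without the T24 control, the UMUC3 control, the first T24 or the second UMUC3 knockdown library. MDM2-228, of the p53 inhibitor MDM2, passed as a single transcript (edgeR adjusted p = 0.0406), a call lost when any 1 library was left out. CASP2, an initiator caspase, had the coding CASP2-201 at 89.3 and 55.1% in the controls and 26.0 to 31.8% in the knockdown libraries. The retained-intron CASP2-204 stood at 10.2 and 38.9% against 53.1 to 67.3%. BRCA1-208, of the DNA repair gene, held 54.7 and 23.8% in the controls and at most 0.648% in the knockdown libraries. MDM4-205, of another p53 inhibitor, held 57.9 and 41.4% against 11.6 to 32.99%. Its own counts were 208 in the T24 control against 809 and 258, and 636 in the UMUC3 control against 25 and 296. EGFR-201, of the growth factor receptor, held 71.4 and 51.5% against 80.2 to 93.2%, and EGFR-206 20.8 and 39.4% against 0 to 13.7%. FAS-204, of the death receptor, held 87.9 and 86.8% against 21.0 to 69.4%, and PKM-220, of pyruvate kinase, 26.2 and 11.3% against 0 to 10.4%.

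Of 49 splicing factors of the SR and hnRNP kind, 4 (MBNL1, RBM25, RBM10 and U2AF1), or 8.16%, differed alike, against 5.91% of all tested genes. MBNL1 and SF1 passed the edgeR test, where 1.44% of all tested genes did. RBM25-212, a retained-intron transcript, held 9.44 and 14.6% in the controls and 27.7 to 53.5% in the knockdown libraries, and the coding RBM25-201 65.9 and 71.9% against 15.4 to 55.6%. RBM10-201 held 2.73 and 11.99% against 22.3 to 28.3%. Its counts were alike at 42 to 88 per library, while the gene's own counts were 1540 and 492 in the controls and 173 to 318 in the knockdown libraries. U2AF1-202, of the factor that reads the acceptor site, held 0 and 7.48% against 11.3 to 18.5%.

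Of 37 genes of 3′ end processing and poly(A) binding, 2 (5.41%) differed alike and 0 passed as genes, against 5.91 and 1.44% of all tested genes. EIF4A1-218, of an RNA helicase of translation initiation, passed as a single transcript that held at most 1.71% of the gene (edgeR adjusted p = 0.0461), a call lost when any library but the first T24 knockdown library was left out. PAIP1, a partner of PABPC1, had PAIP1-202 at 37.2 and 0% in the controls and 55.0 to 66.3% in the knockdown libraries, and PAIP1-201 at 51.7 and 73.6% against 25.3 to 41.1%. CNOT6L-202, an NMD transcript of a deadenylase, held 12.3 and 23.6% in the controls and was at 0 in the knockdown libraries. Of 40 genes of actin and focal adhesion, FLNA (2.5%) differed alike, against 5.91% of all tested genes. FLNA and CAPZB passed the edgeR test, where 1.44% of all tested genes did. CAPZB-207, the called transcript of CAPZB, held only 0.265 and 0.209% in the controls and was at 0 in the knockdown libraries (edgeR adjusted p = 0.0330). Its call was lost when any library but the first T24 knockdown library was left out. FLNA-202 held 50.2 and 23.97% in the controls, 18.3 and 0.122% in the T24 and 0.199 and 0.173% in the UMUC3 knockdown libraries. Of 19 genes of nonsense-mediated decay, 0 differed alike and 0 passed, against 5.91 and 1.44% of all tested genes.

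The genes of the series' title had few common differences. PTK2, focal adhesion kinase and the host gene of circPTK2, had no share that differed alike by at least 10 points. PTK2-206 held 49.6% in the T24 control against 58.1 and 55.4% in its knockdown libraries, and 56.8% in the UMUC3 control against 60.7 and 3.05%. In the last library PTK2-218, an NMD transcript, held 48.9%. PABPC1, a poly(A)-binding protein, had no such share either. PABPC1-201 held 37.6% in the T24 control against 90.8 and 81.0% in its knockdown libraries, and 76.9% in the UMUC3 control against 69.3 and 80.8%. Both T24 knockdown libraries lay above their control, and the UMUC3 knockdown libraries on either side of theirs.

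SETDB1, a histone H3K9 methyltransferase, was the 1 gene of 17 in the H3K9 list that differed alike. This is 5.88% of the list, near the 5.91% of all tested genes. SETDB1-205 held 24.3% in the T24 control against 0 and 0.675% in its knockdown libraries, and 25.5% in the UMUC3 control against 0.224 and 0.306%. The test did not pass (edgeR adjusted p = 0.0729). Its counts were 370 and 263 in the controls and 0, 8, 2 and 4 in the knockdown libraries. SETDB1-217 held 0.0657 and 0.388% in the controls and 40.5, 10.1, 5.16 and 21.7% in the knockdown libraries. SETDB1-201 held 48.8% in the T24 control against 40.9 and 5.82% in its knockdown libraries, and 41.5% in the UMUC3 control against 41.9 and 38.5%. The level of SETDB1 was 25.7 CPM against 33.4 and 19.9 in T24 and 18.4 CPM against 15.9 and 21.5 in UMUC3. UHRF1 was the gene of this list that passed the edgeR test, through UHRF1-204, where 1.44% of all tested genes passed.

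Within single lines, edgeR called 127 transcripts in T24 (0.214%) and 106 in UMUC3 (0.178%), with 23 called in both. Without the first or second knockdown library of its own line, 29 and 32 were called in T24 and 17 and 15 in UMUC3. Without the first or second knockdown library of the other line, 237 and 239 were called in T24 and 283 and 283 in UMUC3. Shares differed by at least 10 points in both knockdown libraries of T24 in 2098 transcripts with a higher and 2866 with a lower share. In UMUC3 these were 2349 and 3034. The test of the difference between the lines passed for 104 transcripts (0.175%), of which 19 were among the 602 that differed in opposite directions and 1 among the 729.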

How the data were processed

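The values are raw counts of reads per transcript as the authors deposited them, not normalised, for 6 libraries. The submitters' processing notes name hg38, StringTie 1.3.3b, HISAT2 2.1.0 and FastQC 0.11.5, with no role or order. How reads were divided among transcripts, strand and poly(A) selection are not given in the sources used here, so similar, overlapping and antisense transcripts may exchange reads. Transcripts without a gene (15038, 14.9 to 16.1% of counts) were left out of library sizes and shares. Of 84070 transcripts, 84043 matched GENCODE release 29 and 83655 had identical coordinates there.

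A share is a transcript's counts divided by the summed counts of its gene. Transcripts with at least 10 counts in 2 libraries and 30 in total, in genes with 2 or more of them, were tested with edgeR 4.0.16 (diffSpliceDGE, TMM factors from gene sums, robust quasi-likelihood fit, line as a block) under R 4.3.3. The Benjamini-Hochberg method adjusted p over all transcripts, with a threshold of 0.05. Fits had 3 residual degrees of freedom, and 2 for single lines and their difference, where the lone control is assumed to vary like the knockdown pair. Without the control of a line, the fit for both lines compares knockdown with control in the other line alone. On simulated data the test missed many transcripts made to fall, so one that did not pass is not shown to be unchanged. Alternatives used limma 3.58.1 and DESeq2 1.42.0. Counting intervals cover counting error only.

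Members, lists and rules were chosen with earlier results of these data known. Named are PTK2, PABPC1 and SETDB1, the 20 genes with the largest difference common to all 4 knockdown libraries, 6 called transcripts in each direction and up to 3 genes per list; KIF13A, EGFR, FAS, PKM, U2AF1, NF1, CAPZB, MDM2 and EIF4A1, and the called transcripts MAPK14-204, MAP3K4-203 and MAP3K4-204, were added after their values were seen. The paired knockdown libraries differed beyond sampling noise (chi-square per transcript 142 and 122).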

Additional observations from a re-analysis of the deposited data

Results flagged for a closer look

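The effect of knockdown on transcript use differed between the lines for 104 transcripts by an edgeR interaction test at an adjusted p under 0.05. The 4 with the smallest p were chosen after their values were seen. ATG5-201, of an autophagy gene, held 31.5% in the T24 control and 0 in both its knockdown libraries, and 0 in the UMUC3 control against 22.9 and 22.4% (edgeR adjusted p = 0.00235). PHTF1-202 held 16.2% against 0 and 0 in T24 and 0 against 38.2 and 43.8% in UMUC3 (edgeR adjusted p = 0.00279). TRMT6-202, of a tRNA methyltransferase, held 18.8% against 0 and 0 in T24 and 0 against 14.8 and 14.7% in UMUC3 (edgeR adjusted p = 0.00284). HDAC2-201, of a histone deacetylase, held 10.7% against 0 and 0 in T24 and 0 against 51.6 and 50.8% in UMUC3 (edgeR adjusted p = 0.00412). EIF3E-206 was the 1 transcript that differed alike in all 4 libraries and also passed the test between lines, with 23.4% against 35.9 and 52.9% in T24 and 0 against 34.0 and 25.4% in UMUC3 (edgeR adjusted p = 0.0459).

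Transcripts without a gene name, which enter no share, took a larger part of the counts in the knockdown libraries than in the control of the line. They held 14.9% in the T24 control against 15.74 and 16.1%, and 15.42% in the UMUC3 control against 15.43 and 15.84%. With 1 control per line these differences have no test, and their part in the shares was not tested.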

How the results depend on the processing

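Of the alternatives, DESeq2's size factors, the gene minimum of 500 counts, the 2 replicate blocks and both ways of summing similar transcripts, which were chosen after seeing the data, kept the edgeR count for both lines within 1.5 times. It was 173, 168, 191 (number of the titles), 174 (number of the columns), 169 and 155, against 172. The replicate block changed the count of genes to 127 and 132, against 134. Whether the numbers pair the libraries is not settled. By the numbers of the titles, the differences between knockdown libraries correlated at 0.0108 across transcripts between the lines. This value over all transcripts cannot exclude a pairing that touches some of them.

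Without a filter 312 transcripts and 236 genes passed, and 51 differed between lines; with limma on log2 odds 0 transcripts, 0 genes, 0 in T24, 0 in UMUC3 and 0 between lines (at an unadjusted p under 0.05: 2621, 596, 4336, 4431 and 4738). Voom diffSplice gave 382 and DESeq2 1108. Leaving out 1 library gave 97 (T24 control) to 230 transcripts (first T24 knockdown library) and 85 to 149 genes, 29 to 239 in T24, 15 to 283 in UMUC3 and 140 to 155 between lines. Without the T24 control only UMUC3 was compared with its control, and without the UMUC3 control only T24. The lowest single-line counts came without a knockdown library of that line and the highest without one of the other line, where the lone sample is assumed to vary like the others. The cause was not tested.

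Shares that differed alike numbered 1615 at 5 points, 266 at 20 points and 471 in genes with at least 500 counts; those opposite 1374, 179 and 364. Without 1 knockdown library they numbered 1209 to 1315 and 1132 to 1238, since fewer libraries had to share the direction. Between paired knockdown libraries, T24 gave 15591, 5165 and 6350 and UMUC3 15450, 4920 and 6128 under the same 3 settings.

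Of 17 named transcripts that passed, 17 passed with DESeq2's size factors, without a filter and with the higher gene minimum, 15 with voom, 16 with DESeq2 and 0 with limma on log2 odds. With the replicate block 17 (number of the titles) and 16 (number of the columns) passed; the latter lost TXNDC5-202 (edgeR adjusted p = 0.0528). MDM2-228 and EIF4A1-218 were lost with either block (edgeR adjusted p = 0.0641 and 0.0708 for the titles, 0.123 and 0.105 for the columns). So were CAPZB-207, NF1-208, MBNL1-212 and MBNL1-218. Their edgeR adjusted p was 0.0571, 0.0599, 0.0777 and 0.12 for the titles, and 0.0704, 0.0743, 0.085 and 0.124 for the columns. MAPK14-204, MAP3K4-203 and MAP3K4-204 were lost with limma on log2 odds (adjusted p = 0.0592, 0.0664 and 0.0664). Without the T24 control 10 passed and without the UMUC3 control 11. RPL4-203, at 0 in T24, reversed without the UMUC3 control: leaving out 1 library gave fitted log2 values of -0.15 to 19.99, which rest on the zeros and are no measure of size.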
